A study of Mus musculus with 13 samples.

Results

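Acta2, Myh11, Tagln, Cnn1, Des, Actg2, Mylk and Myl9, contractile genes of smooth muscle that are used as markers of peritubular myoid cells, were followed across mouse testis and sorted round spermatids of 3 Wfdc15a genotypes. They were taken by symbol from the deposited expression table, which holds 30479 genes, and all 8 were found there. The whole-testis libraries came from Wfdc15a knockout mice (KO, 3 libraries), heterozygous mice (Het, 1 library) and wild-type mice (WT, 2 libraries), all at postnatal day 25. The round spermatid libraries came from KO (3), Het (2) and WT (2) mice of the same age. Round spermatids, haploid germ cells that have completed meiosis, were sorted after DNA staining in lots of 100 to 200 cells, whereas each testis library started from about 2 ng of RNA, and both were made by Smart-seq2. The labels give neither the mouse strain, nor how the knockout allele was made, nor which animals were used. The p-values therefore cover the spread between libraries alone, and this spread may be technical.

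Peritubular myoid cells are flat smooth-muscle-like cells that wrap the seminiferous tubules, and their contraction moves fluid and sperm along the tubule. In smooth muscle, calcium and calmodulin activate myosin light chain kinase, which phosphorylates the regulatory light chain of myosin and lets the motor pull on actin filaments. Serum response factor and its partner myocardin drive many of these genes through a DNA element called the CArG box. Vascular smooth muscle of the testis expresses the same genes, and in mice a smooth muscle gamma-actin transcript is also known from germ cells after meiosis.

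On build mm10, Acta2 lies on chromosome 19 from 34241090 to 34255590 (minus strand), Actg2 on chromosome 6 from 83512905 to 83536265 (minus strand) and Myh11 on chromosome 16 from 14194535 to 14291372 (minus strand). Myl9 lies on chromosome 2 from 156775420 to 156781658 (plus strand) and Mylk on chromosome 16 from 34745210 to 35002420 (plus strand). Tagln and Cnn1 are both on chromosome 9, from 45929619 to 45936058 (minus strand) and from 22099216 to 22109630 (plus strand), and Des is on chromosome 1 from 75360329 to 75368579 (plus strand). RefSeq promoter windows of build GRCm38.p6, which run from 250 bases before to 50 bases after the start that RefSeq gives, were at hand for 5 of the 8 genes (Acta2, Cnn1, Des, Mylk and Myl9). The RefSeq start lay 37 to 217 bases from the gene start given above for 4 of them, but for Mylk it lay 39.74 kb inside the gene, so that window does not describe the start given above. Of these 5 windows, 2 held a CArG box with up to 1 mismatch and are shown 5′ to 3′ on the strand of the gene. Each such box is in capitals. The Acta2 window is chr19:34255324-34255623 (minus strand) and the Myl9 window is chr2:156775214-156775513 (plus strand).
Acta2 promoter: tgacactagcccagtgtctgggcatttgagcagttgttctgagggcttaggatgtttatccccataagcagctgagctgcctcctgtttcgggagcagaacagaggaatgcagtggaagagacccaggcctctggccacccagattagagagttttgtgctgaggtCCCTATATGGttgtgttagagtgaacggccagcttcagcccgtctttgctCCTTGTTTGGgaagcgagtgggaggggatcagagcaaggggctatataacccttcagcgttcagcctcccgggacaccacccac
Myl9 promoter: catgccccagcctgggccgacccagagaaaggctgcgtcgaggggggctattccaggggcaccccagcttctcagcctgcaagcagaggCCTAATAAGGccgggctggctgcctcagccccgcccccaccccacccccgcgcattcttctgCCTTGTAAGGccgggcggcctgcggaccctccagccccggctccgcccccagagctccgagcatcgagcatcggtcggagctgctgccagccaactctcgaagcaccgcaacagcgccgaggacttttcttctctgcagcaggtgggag
In Myl9 the box that begins 161 bases before the start matched the CArG box exactly, and the one 99 bases before the start had 1 mismatch. Both Acta2 boxes, 84 and 34 bases before the start, had 1 mismatch. Both strands were searched, and among all 32851 RefSeq promoter windows, 1.629% held an exact CArG box and 21.11% held one with up to 1 mismatch. A match describes the letters only, and the windows of Cnn1 and Des, like the internal window of Mylk, held none.

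Levels are given in reads-per-million (RPM), computed back from the deposited log2 values, with genes at 0 reads set to 0. Testis libraries held 7375270 to 18438704 reads and round spermatid libraries 10825690 to 20927428 reads, so that 3 reads stood for 0.143 to 0.407 RPM, the upper limit that a count of 0 allows. The targeted gene Wfdc15a was at 36.8 to 116 RPM in KO, 48.4 RPM in Het and 207 to 212 RPM in WT testis, and at 48.1 to 97.9 RPM in KO, 65.0 to 71.5 RPM in Het and 234 to 267 RPM in WT round spermatids. Its testis difference, KO minus WT, was -1.85 on the log2(RPM + 1) scale (SE 0.55, limma adjusted p = 0.122). Whether its reads lie in the part of the gene that the knockout allele changes was not tested. A principal component analysis left out the contractile genes and the lists of related genes used below, but kept the cell type markers. Its leading component set KO replicate 1 and both WT libraries apart from the Het libraries and KO replicates 2 and 3. That component took up 71.5% of all testis variance and 55.4% of all round spermatid variance, so the genotype results are also given without KO replicate 1, and for the contractile genes within each side of the split. Without KO replicate 1, KO and WT lie on opposite sides of the split, as Het and WT always do. In those comparisons genotype and split cannot be told apart.

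**Figure D1:**
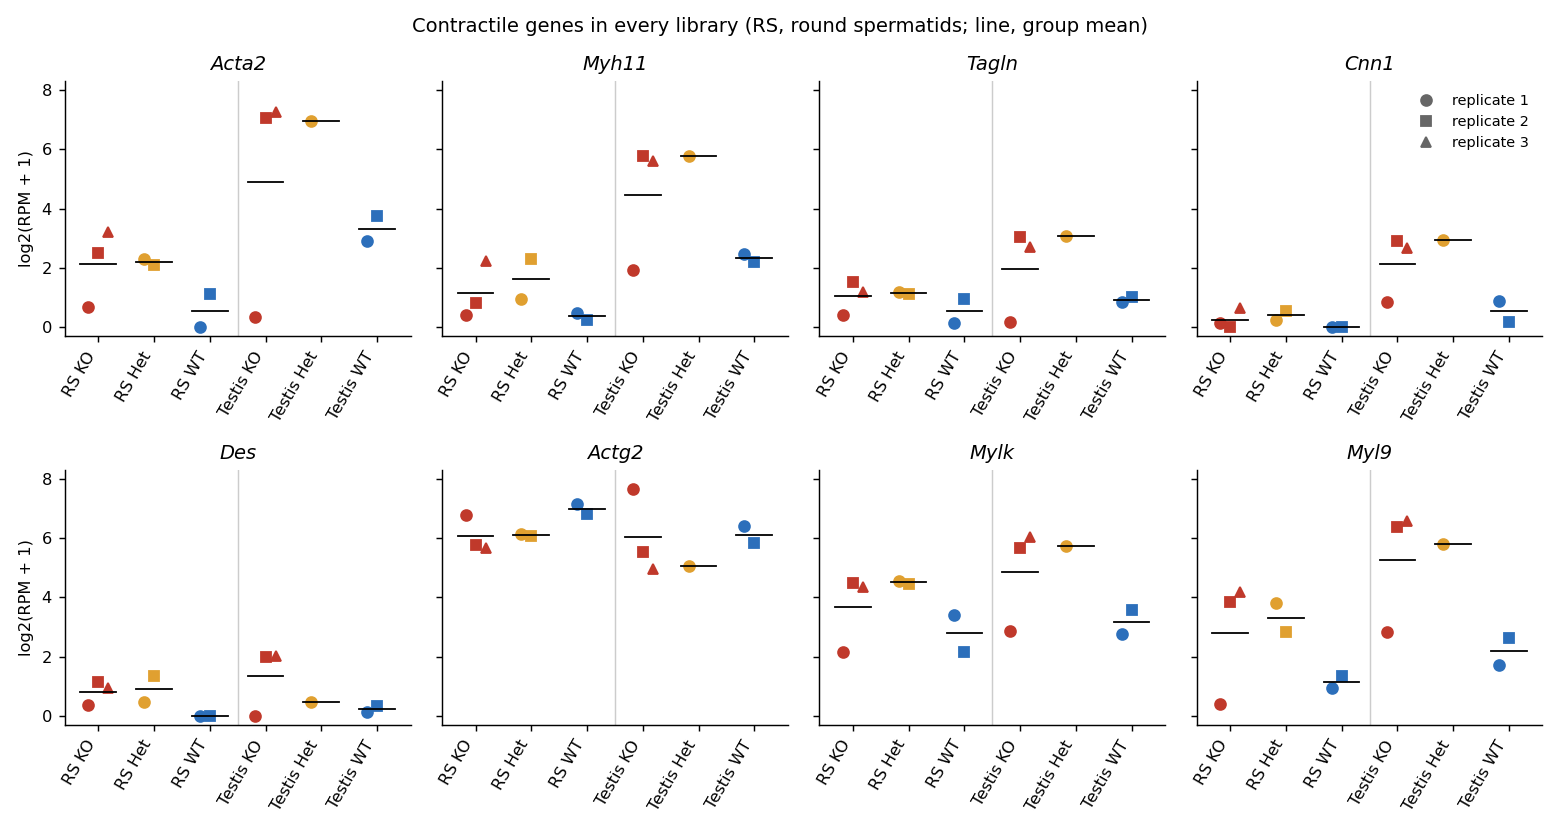
Level of each contractile gene in every library on the log2(RPM + 1) scale, with round spermatids (RS) left and whole testis right. Points are libraries, shapes are replicate numbers and lines are group means. In testis, KO replicate 1 lies below KO replicates 2 and 3 for 7 of the genes and above them for Actg2, and the Het library sits near KO replicates 2 and 3 except for Des.

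The 2 actins had opposite profiles. Acta2 encodes smooth muscle alpha-actin, the usual marker of myoid cells. Its level was 0.271, 132 and 153 RPM in KO testis replicates 1 to 3, 123 RPM in Het testis and 6.51 and 12.4 RPM in WT testis. KO replicate 1 lay below both WT libraries, with 2 reads of Acta2 against 120 and 196 reads in WT, and KO replicates 2 and 3 lay above them, so the KO and WT groups overlapped. In a bulk sample such as these, fewer cells of a type and less RNA per cell cannot be told apart. Round spermatid levels of Acta2 were 0.621, 4.63 and 8.38 RPM in KO, 3.93 and 3.33 RPM in Het, against 0 and 1.18 RPM in WT. Again KO replicate 1 was the lowest KO library and fell within the WT range, whereas both Het libraries were above WT.

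Actg2 encodes smooth muscle gamma-actin. Its RNA stood at 199, 45.3 and 29.7 RPM in KO testis, 32.0 RPM in Het testis and 83.0 and 55.5 RPM in WT testis. The round spermatid libraries had 108, 52.8 and 50.3 RPM in KO, 69.9 and 66.3 RPM in Het, against 141 and 110.1 RPM in WT. The highest testis library was KO replicate 1, the one lowest in Acta2, and in round spermatids all KO and Het libraries lay below both WT libraries. Acta2 took 0.136%, 74.4% and 83.8% of the summed RPM of both actins in KO testis, 79.4% in Het testis and 7.27% and 18.3% in WT testis. In round spermatids that share was 0.570%, 8.06% and 14.3% in KO, 5.32% and 4.77% in Het and 0% and 1.06% in WT, so Actg2 gave most of the smooth muscle actin reads in every round spermatid library. This goes against the label of a myoid cell gene for Actg2, which was first of the 8 genes per kb of exon in sorted germ cells, where the defining myoid marker Acta2 was at 8.38 RPM or less.

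**Figure D2:**
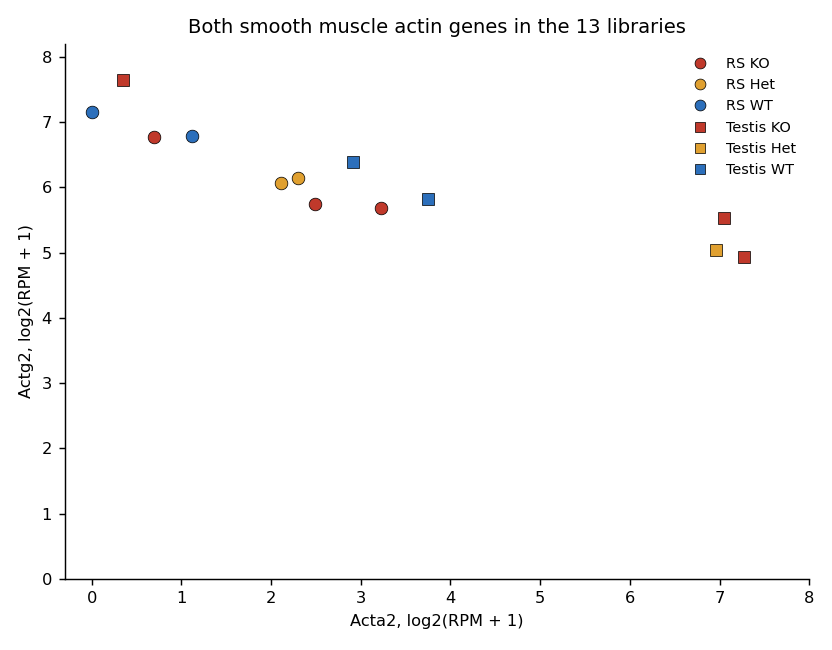
Acta2 (x axis) and Actg2 (y axis) in the 13 libraries, both on the log2(RPM + 1) scale, with round spermatids (RS) as circles and testis as squares, coloured by genotype. The libraries with the lowest Acta2 have the highest Actg2, with KO testis replicate 1 at the top left (0.271 and 199 RPM), and Het testis and KO testis replicates 2 and 3 lie at the bottom right.

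The motor genes were high in the same testis libraries as Acta2. Myh11, the smooth muscle myosin heavy chain, was at 2.85, 54.2 and 48.0 RPM in KO testis, 54.3 RPM in Het testis and 4.50 and 3.61 RPM in WT testis. Myh11 in the sorted cells was at 0.334, 0.762 and 3.76 RPM in KO, 0.932 and 3.97 RPM in Het, against 0.409 and 0.196 RPM in WT. KO replicate 1 was again below both WT libraries in testis and between them in round spermatids. Myl9, the regulatory light chain that is phosphorylated to start contraction, was at 6.10, 82.5 and 93.1 RPM in KO testis, 54.8 RPM in Het testis and 2.28 and 5.26 RPM in WT testis. It is the only one of the 8 genes whose KO and WT testis libraries did not overlap, against 28.2% of all genes tested that were separated with KO higher. In round spermatids Myl9 was at 0.334, 13.4 and 17.0 RPM in KO, 12.99 and 6.10 RPM in Het, against 0.935 and 1.52 RPM in WT, with KO replicate 1 lowest of all. Mylk, the kinase that phosphorylates this light chain, was at 6.24, 49.8 and 64.3 RPM in KO testis, 51.9 RPM in Het testis and 5.80 and 11.02 RPM in WT testis. Its round spermatid values were 3.49, 21.2 and 19.4 RPM in KO, 22.3 and 21.1 RPM in Het, against 9.70 and 3.48 RPM in WT, highest in both Het libraries and in KO replicates 2 and 3. KO replicate 1 lay within the WT range for Mylk in both cell types. The Mylk exons share 4.865% of their bases with the antisense gene E130310I04Rik and 1.989% with the antisense gene Gm21691, and Smart-seq2 reads do not tell the strands apart.

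Per kb of exon, the thin-filament genes were below the actins and the motor genes in testis. Cnn1, calponin 1, which binds actin and restrains the myosin motor, was at 0.814, 6.51 and 5.38 RPM in KO testis, 6.72 RPM in Het testis and 0.868 and 0.127 RPM in WT testis. The sorted cells had Cnn1 at 0.0956, 0 and 0.568 RPM in KO, 0.1998 and 0.462 RPM in Het and 0 in both WT libraries, at most 8 reads in any library and near the limit of detection. Tagln, transgelin or SM22, an actin cross-linking protein, was at 0.136, 7.22 and 5.51 RPM in KO testis, 7.39 RPM in Het testis and 0.814 and 1.01 RPM in WT testis. Tagln in the sorted cells was at 0.334, 1.87 and 1.28 RPM in KO, 1.27 and 1.20 RPM in Het, against 0.117 and 0.932 RPM in WT. For both genes the Het testis library and KO testis replicates 2 and 3 were high, and KO replicate 1 was within or below the WT range. Tagln values are uncertain, since 62.42% of its exon bases lie under the antisense gene Gm48529, whose level differed from that of Tagln by at most 0.697 RPM in any library.

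Des encodes desmin, the muscle intermediate filament protein, and was the lowest of the 8 genes per kb of exon in testis. KO testis libraries had 0, 2.98 and 3.10 RPM, with 0.384 RPM in Het testis and 0.108 and 0.253 RPM in WT testis. Here the Het library held 4 reads and lay far below KO replicates 2 and 3, unlike for the other genes. In round spermatids Des was at 0.287, 1.23 and 0.923 RPM in KO, 0.3996 and 1.57 RPM in Het and 0 in both WT libraries, and no KO or Het library overlapped WT. With Actg2, which was lower, Des was thus 1 of 2 genes whose KO and WT round spermatid libraries did not overlap, against 16.6% of all genes tested with KO higher and 19.4% with KO lower. No round spermatid library held more than 21 Des reads, and 5.86% of the Des exon bases lie under the antisense gene Gm15179.

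Per kb of exon, Actg2 was first in 5 of the 6 groups and Acta2 was first in Het testis. Acta2 averaged 43.3 ± 37.7 RPM per kb in KO testis (SD, n = 3), against 4.31 ± 1.90 in WT testis (SD, n = 2). Actg2 averaged 58.8 ± 60.3 RPM per kb in KO testis (SD, n = 3), against 44.5 ± 12.5 in WT testis (SD, n = 2), and Myl9 averaged 52.1 ± 40.9 in KO testis, against 3.24 ± 1.81 in WT testis. In Het testis the levels were 56.1 for Acta2, 47.2 for Myl9 and 20.5 for Actg2. In round spermatids Actg2 averaged 45.3 ± 21.1 in KO (SD, n = 3), 43.8 ± 1.64 in Het (SD, n = 2) and 80.7 ± 14.1 in WT (SD, n = 2), while the next gene, Myl9, averaged 8.81 ± 7.55 in KO, 8.21 ± 4.19 in Het and 1.06 ± 0.357 in WT. Ranked by group mean, Acta2, Myh11, Tagln, Cnn1 and Mylk were highest in Het testis, followed by KO testis, and 7 of the 8 genes had their lowest mean in WT round spermatids. The KO and WT testis ranges overlapped for 7 of the 8 genes, all but Myl9, so there the order of these groups is not larger than the spread between libraries. Most neighbours in the order of the groups overlapped. Exceptions were Het above WT round spermatids for Acta2 and Het above KO testis for Myh11, Tagln and Cnn1. Another was Het round spermatids above Het testis for Actg2. For Des they were Het testis above WT testis and WT testis above WT round spermatids. These Des levels rest on 4 reads in Het testis and on 2 and 4 reads in WT testis. Het testis is 1 library without a range, so a gap to it can be small. Myh11 was at 54.3 RPM there and 54.2 RPM in KO testis replicate 2. By the same measure Tagln was at 7.39 and 7.22 RPM, and Cnn1 at 6.72 and 6.51 RPM. For Myl9, Het testis lay above KO round spermatids, Het round spermatids above WT testis, and WT round spermatids below WT testis.

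With all libraries, no difference between knockout and wild-type testis passed the threshold for any of the 8 genes. The test was limma on log2(RPM + 1) in all 6 testis libraries, over 18570 genes that reached 1 RPM in 2 or more libraries, two-sided and with Benjamini-Hochberg adjustment at a threshold of 0.05. It called 0 of the 8 genes and 0% of all genes, and voom on the recovered reads also called 0 of the 8. At an unadjusted p under 0.05, 1 of the 8 genes was higher in KO (Myl9), against 17.0% of all genes higher and 6.54% lower. KO minus WT was 3.08 for Myl9 (SE 1.21, adjusted p = 0.192), 2.12 for Myh11 (SE 1.24, adjusted p = 0.339) and 1.56 for Acta2 (SE 2.07, adjusted p = 0.649). For the other genes it was 1.67 for Mylk, 1.61 for Cnn1, 1.11 for Des, 1.04 for Tagln and -0.07 for Actg2. The median of the 8 differences was 1.59, beside 0.63 over all genes tested, a shift towards KO of the table as a whole. With each library centred on its median, Acta2 was at 0.62, Myh11 at 1.17, Myl9 at 2.13 and Actg2 at -1.01, with the signs of all 8 as before.

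KO testis replicate 1 decided these values. Without it, 7 of the 8 genes were called higher in KO, where 51.2% of all genes were called higher, and Actg2 was called lower, where 14.0% were called lower. KO minus WT was then 3.84 for Acta2 (SE 0.31, limma adjusted p = 0.000116), 4.29 for Myl9 (SE 0.36, adjusted p = 0.00013), 3.37 for Myh11 (SE 0.28, adjusted p = 0.000125) and -0.87 for Actg2 (SE 0.30, adjusted p = 0.0399). Mylk was at 2.67, Cnn1 at 2.25, Tagln at 1.94 and Des at 1.78. These values compare libraries from opposite sides of the split on all genes, so genotype and split cannot be told apart in them. Within the side of the split that holds the WT libraries, KO replicate 1 minus WT was -2.98 for Acta2 (SE 0.73, adjusted p = 0.00167), where 22.8% of genes were called lower, and 1.54 for Actg2 (SE 0.32, adjusted p = 0.000329), where 19.3% were called higher. That lone KO library was taken to vary like the others. Within the other side, KO replicates 2 and 3 minus Het ran from -0.20 (Tagln) to 1.55 (Des), with 0.21 for Acta2 and 0.19 for Actg2, and 0 of the 8 genes were called by limma, where 0.0057% of all genes were called higher and 0.057% lower. The sign of the genotype difference of Acta2 and of Actg2 thus depended on which KO library was set against which group.

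**Figure D3:**
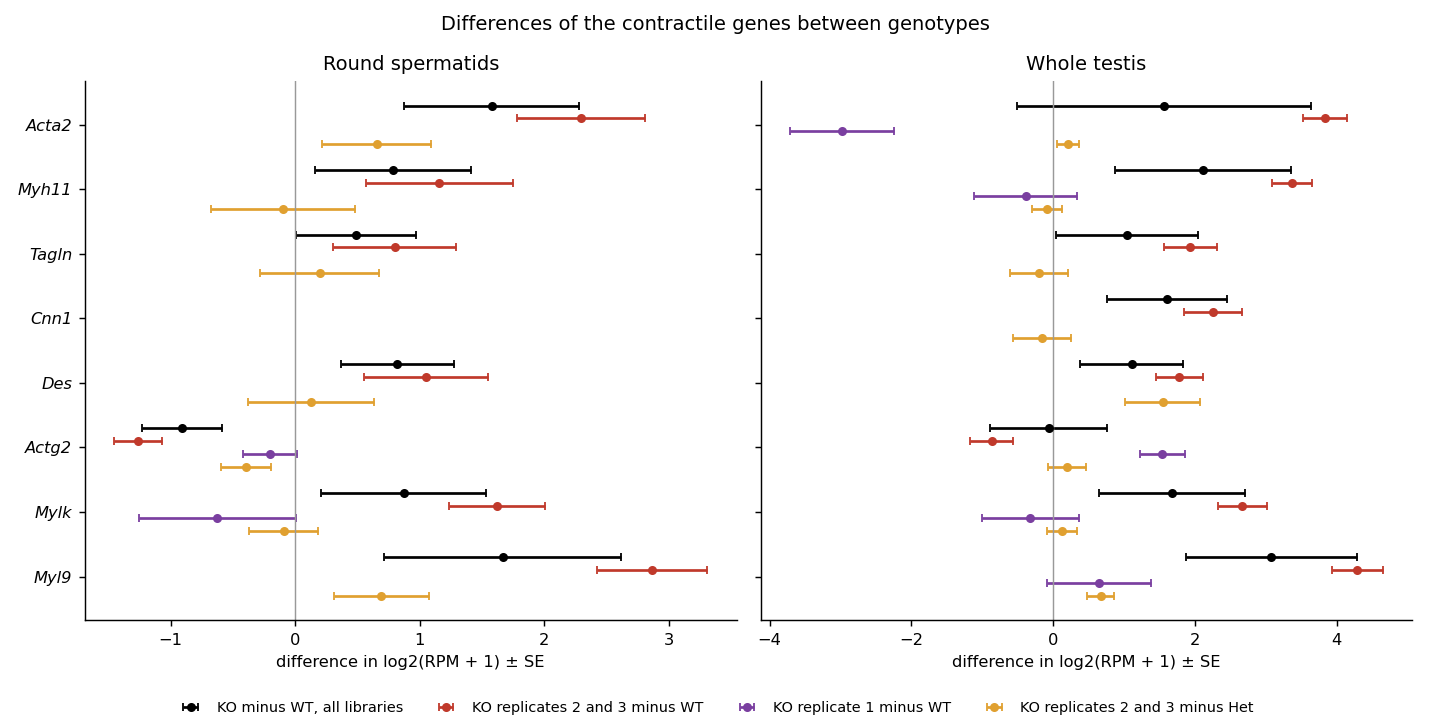
Difference between genotypes of each contractile gene on the log2(RPM + 1) scale with its limma standard error, in round spermatids (left) and whole testis (right). Colours mark which libraries were compared, and a gene that did not reach the expression filter has no point. In testis, Acta2 lies at 1.56 with all libraries, 3.84 without KO replicate 1 and -2.98 for KO replicate 1 alone against WT.

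Heterozygous testis, which has 1 library and so borrows its spread from the other groups, differed from WT by 3.63 for Acta2, 3.62 for Myl9, 3.46 for Myh11 and 2.55 for Mylk. Cnn1 was at 2.41, Tagln at 2.13, Des at 0.23 and Actg2 at -1.06, with a median of 2.48 over the 8 genes beside 1.02 over all genes tested. None of the 8 was called by limma, nor was any other gene, and the smallest adjusted p among them was 0.269 (Myl9). None of the 8 had an unadjusted p under 0.05, against 14.9% of all genes higher and 4.90% lower, and voom called 0 as well. Without KO replicate 1 in the fit, 6 of the 8 genes (all but Des and Actg2) were called higher in Het, where 45.3% of all genes were, and Actg2 was called lower, where 11.5% were. With libraries centred, Des in Het testis lay below WT at -1.17.

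In round spermatids, too, no genotype difference of the contractile genes passed the threshold. In that fit 7 of the 8 genes passed the expression filter, and Cnn1 did not. KO minus WT was 1.67 for Myl9 (SE 0.95), 1.58 for Acta2 (SE 0.70), 0.87 for Mylk (SE 0.66), 0.79 for Myh11 and 0.49 for Tagln. For Des it was 0.82, which depends on the pseudocount because both WT libraries were at 0, and for Actg2 it was -0.91 (SE 0.32). None was called by limma among 18075 genes, nor by voom, with 0% of all genes called and adjusted p from 0.169 (Actg2) to 0.577 (Tagln). At an unadjusted p under 0.05, Acta2 was higher, against 11.2% of all genes, and Actg2 was lower, against 9.92%. Het minus WT was 2.17 for Myl9, 1.71 for Mylk, 1.65 for Acta2, 1.26 for Myh11, 0.92 for Des, 0.60 for Tagln and -0.86 for Actg2, with adjusted p from 0.166 to 0.497 and 0 genes called by limma. At an unadjusted p under 0.05 Mylk was higher, against 16.1% of all genes, and Actg2 was lower, against 9.07%. The KO and Het comparisons share their WT libraries.

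KO replicate 1 mattered here too. Without it, Acta2 (2.30, SE 0.51, limma adjusted p = 0.00345), Mylk (1.62, SE 0.38, adjusted p = 0.00512) and Myl9 (2.87, SE 0.44, adjusted p = 0.000212) were called higher in KO round spermatids, where 19.5% of all genes were. Actg2 was called lower (-1.26, SE 0.19, adjusted p = 0.000197), where 11.3% were. The same 4 genes were called in the same directions for Het against WT without that library, at 1.65 for Acta2, 1.71 for Mylk, 2.17 for Myl9 and -0.86 for Actg2, where 17.6% of all genes were called higher and 8.83% lower. KO replicate 1 minus WT was -0.20 for Actg2 (SE 0.22) and -0.63 for Mylk (SE 0.63), neither of them called, where 0.238% of all genes were called higher and 1.03% lower, and the other genes did not pass the filter there. KO replicates 2 and 3 minus Het ran from -0.40 (Actg2) to 0.69 (Myl9), and none was called, where 0.00588% of all genes were called higher and 0.0176% lower.

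Set against whole testis, 2 of the 8 genes were called lower in sorted round spermatids, and 7 of the 8 differences were negative (6 with libraries centred or a pseudocount of 0.1 RPM, where Des was above 0). Over Het and KO, round spermatid minus testis was -3.72 for Myh11 (SE 0.85, limma adjusted p = 0.0317) and -2.22 for Cnn1 (SE 0.46, adjusted p = 0.0245), where 4.53% of 20085 genes tested were called lower and 2.79% higher. Acta2 was at -3.75 (SE 1.35, adjusted p = 0.1), Myl9 at -2.47 (SE 1, adjusted p = 0.132), Tagln at -1.42, Mylk at -1.21, Des at -0.03 and Actg2 at 0.55 (SE 0.53), none of them called. With libraries centred, the calls over all genes were 1995 higher and 617 lower, against 560 higher and 909 lower before, and Myh11 and Cnn1 were still called lower. With a pseudocount of 0.1 RPM neither was called (adjusted p = 0.0536 for Myh11 and 0.0551 for Cnn1). With same-numbered libraries of a genotype as a block, where Het rests on its 1 pair, 4 genes were called lower, where 5.54% of all genes were called lower and 2.47% higher. These were Myh11 (-4.06, limma adjusted p = 0.0264), Cnn1 (-2.29, adjusted p = 0.0341), Acta2 (-3.70, adjusted p = 0.0392) and Myl9 (-2.22, adjusted p = 0.0304). Both calls were lost without round spermatid KO replicate 1, KO replicate 2, Het replicate 1 or Het replicate 2, and 1 was lost without any of 6 others, namely both WT libraries of either cell type and KO testis replicates 2 and 3. Without KO testis replicate 1, 6 of the 8 genes (all but Des and Actg2) were called lower, where 33.9% of all genes were, and Actg2 was called higher, where 12.9% were.

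Set library by library, KO round spermatid replicates 2 and 3 held 3.51% and 5.46% of the Acta2 level of the same-numbered KO testis libraries, 1.40% and 7.84% of Myh11 and 16.2% and 18.3% of Myl9. For Tagln these shares were 26.0% and 23.2%, for Mylk 42.6% and 30.1%, and for Actg2 116% and 169%. The shared number only names the libraries. The Sertoli cell markers stood at 12.5% and 12.4% and the interstitial stroma markers at 80.1% and 86.3% by the same measure, and the Leydig cell markers at 3.51% and 13.02%. In KO replicate 1, where testis held 2 Acta2 reads, the shares were 229% for Acta2, 247% for Tagln, 54.4% for Actg2, 43.3% for the Sertoli cell markers and 3.16% for the stroma markers.

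In WT, round spermatid minus testis was -2.77 for Acta2 (SE 1.83), -1.96 for Myh11 (SE 1.15), -1.04 for Myl9 (SE 1.36) and 0.87 for Actg2 (SE 0.72). Cnn1 was at -0.54, Mylk at -0.39, Tagln at -0.38 and Des at -0.24. None was called, with adjusted p from 0.344 to 0.899, and none had an unadjusted p under 0.05 (17.9% of all genes higher and 6.62% lower did), while 9.09% of all genes were called higher and 2.39% lower (1825 and 480 genes, or 727 and 455 with libraries centred). Without KO testis replicate 1 in the fit, Acta2 (adjusted p = 0.00829) and Myh11 (adjusted p = 0.0295) were called lower at the same differences, where 8.80% of all genes were. The difference of the KO effect between the cell types (KO minus WT in round spermatids minus the same in testis) was called for none of the 8 genes, at 0.02 for Acta2 (SE 2.37), -0.84 for Actg2 (SE 0.92) and -1.41 for Myl9 (SE 1.75), where 0.294% of all genes were called higher and 1.84% lower. None of the 8 had an unadjusted p under 0.05 there, against 3.77% of all genes higher and 13.5% lower. Without KO replicate 1 of both cell types it was -2.21 for Myh11 (adjusted p = 0.0371) and -1.93 for Cnn1 (adjusted p = 0.0214), and these 2 genes were called lower, where 26.7% of all genes were.

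**Figure D4:**
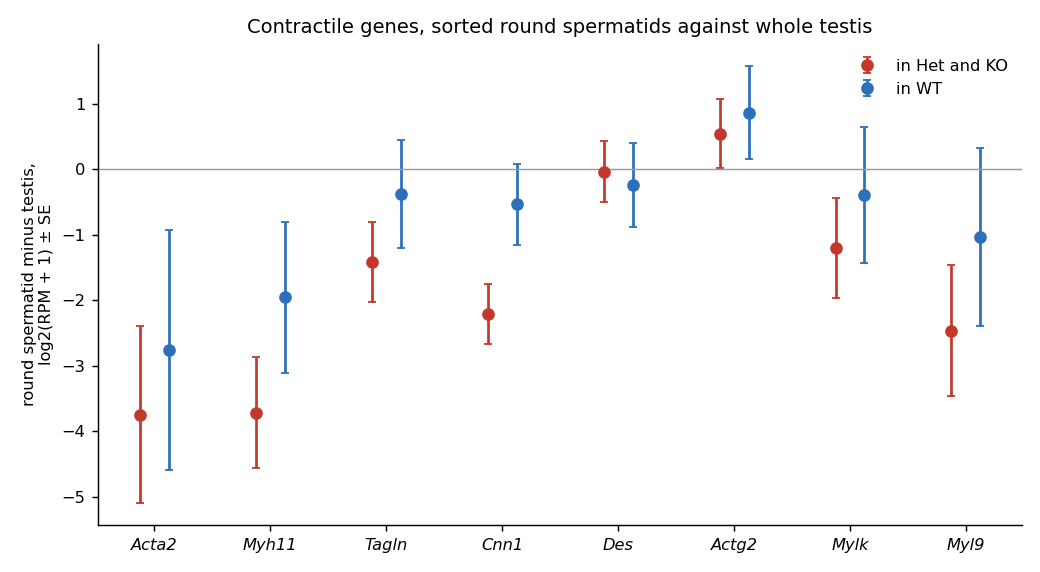
Round spermatid minus testis difference of each contractile gene on the log2(RPM + 1) scale with its limma standard error, over Het and KO (red) and in WT (blue). Actg2 is the only gene above 0 in both, and over Het and KO the lowest values are -3.75 for Acta2 and -3.72 for Myh11.

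Other genes of the contractile apparatus and its control were followed as lists. Of 25 further contractile and thin-filament genes, 24 were tested in testis, and KO minus WT was positive for 21 and negative for 3, with a median of 2.23 beside 0.63 over all genes. None was called by limma, and 13 were higher at an unadjusted p under 0.05, against 17.0% of all genes. Without KO replicate 1 the median was 2.91, beside 0.997 over all genes, and 18 were called higher and 1 lower, against 51.2% and 14.0% of all genes. The smallest p values belonged to Cavin1, a coat protein of caveolae (4.11, adjusted p = 0.071), Hspb6, a small heat shock protein (2.36, adjusted p = 0.0716), Flna, the actin cross-linker filamin A (3.76, adjusted p = 0.078) and Csrp1, a LIM-domain protein (2.91, adjusted p = 0.11). For these 4 genes KO replicate 1 also lay above both WT libraries. They were picked by their p in this same comparison, which favours such genes, and 28.2% of all genes tested were separated with KO higher. Flna was at 12.5, 55.4 and 59.0 RPM in KO, 51.5 RPM in Het, against 1.46 and 1.84 RPM in WT testis. Hspb6 was at 58.7, 41.8 and 40.2 RPM in KO, 49.9 RPM in Het, against 7.21 and 9.38 RPM in WT testis. In round spermatids the same list had a median of 0.89 for KO minus WT (18 of 24 positive, 0 called by limma). At an unadjusted p under 0.05, 5 were higher and 1 lower there, against 11.2% and 9.92% of all genes, and without KO replicate 1 limma called 11 higher and 1 lower, against 19.5% and 11.3%. For round spermatid minus testis over Het and KO the median was -1.13 (20 of 24 negative, 0 called by limma). There 1 was higher and 13 were lower at an unadjusted p under 0.05, against 10.2% and 19.0% of all genes, and without KO testis replicate 1, 1 was called higher and 17 lower, against 12.9% and 33.9%.

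Regulators of contraction, 22 of 23 tested, had a median of 0.92 for KO minus WT in testis, with 17 positive, 5 negative and 0 called by limma. Of these, 4 were higher and 1 lower at an unadjusted p under 0.05, near the 17.0% and 6.54% of all genes, and without KO replicate 1 limma called 16 higher and 3 lower, against 51.2% and 14.0%. Rock1 and Rock2, genes of kinases that inhibit myosin phosphatase, were at 3.53 (adjusted p = 0.071) and 2.97 (adjusted p = 0.114), Oxtr, the oxytocin receptor, at 2.26 (adjusted p = 0.116, with 0 reads in both WT libraries), and Calm3, a calmodulin gene, at -1.57 (adjusted p = 0.095). Rock1 was at 21.2, 55.8 and 48.9 RPM in KO, 56.8 RPM in Het, against 2.17 and 2.72 RPM in WT testis. Genes that control smooth muscle transcription, 10 of 13 tested, were all positive, with a median of 1.28 and 0 called by limma. At an unadjusted p under 0.05, 2 were higher, near the 17.0% of all genes, and without KO replicate 1 limma called 9 higher, against 51.2%. Among them Mef2a was at 3.26 (adjusted p = 0.109), Mrtfa, a coactivator of serum response factor, at 2.35 (adjusted p = 0.128) and Gata6 at 2.22 (adjusted p = 0.247). In round spermatids the medians for KO minus WT were -0.06 for the regulators and 0.09 for transcriptional control, beside 0.03 over all genes, and 0.17 and 0.12 without KO replicate 1, beside 0.13.

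Non-muscle paralogs of the 8 genes were also expressed. Of the cytoplasmic actins, Actg1 was at 821 to 1283 RPM in KO, 1441 RPM in Het and 1164 to 1481 RPM in WT testis, and Actb at 239 to 778 RPM in KO, 733 RPM in Het and 199.7 to 362 RPM in WT testis. The striated muscle actins Acta1 and Actc1 were at or near 0 in all 13 libraries, at most 0.710 RPM. The list of 11 striated muscle genes that holds these actins was not near 0 throughout. Its testis sums were 2.71, 31.1 and 36.7 RPM (KO), 25.05 RPM (Het) and 2.49 and 4.24 RPM (WT). These sums were thus high in the same testis libraries as Acta2, as Myh1, Myh6, Myh7 and Tnnt2 were, but other genes of the list were not. Ckm (0.325 and 1.08 RPM) and Myh4 (1.90 and 1.58 RPM) were higher in both WT testis libraries than in any KO or Het testis library. Vim, the intermediate filament gene of mesenchymal and Sertoli cells, was at 25.9, 124 and 155 RPM in KO, 97.7 RPM in Het, against 6.4 and 10.4 RPM in WT testis, with a KO minus WT difference of 3.13 (SE 0.82, limma adjusted p = 0.0988), or 3.93 without KO replicate 1 (adjusted p = 8.18e-05). Over the 14 of 18 paralogs tested the median difference was 0.76, with 10 positive, 4 negative and none called by limma. Among them 3 were higher at an unadjusted p under 0.05, near the 17.0% of all genes, and without KO replicate 1 limma called 8 higher, against 51.2%.

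In Het testis and KO testis replicates 2 and 3, markers of other somatic cells and of meiotic germ cells were high, as the contractile genes were. In KO replicate 1 the marker lists did not all run with the contractile genes. In testis, the summed level of 12 Sertoli markers was 29.6, 2076 and 2247 RPM in KO, 2008 RPM in Het, against 49.6 and 60.6 RPM in WT, with Amh at 0 in both WT libraries and Amh and Sox9 at 0 in KO replicate 1. Of 10 interstitial stroma markers the sum was 234, 812 and 1303 RPM in KO, 780.1 RPM in Het, against 25.3 and 24.5 RPM in WT, and of 10 vascular smooth muscle and pericyte markers it was 19.7, 31.5 and 49.2 RPM in KO, 39.8 RPM in Het, against 8.03 and 6.91 RPM in WT. In KO replicate 1, 7 of those 10 vascular markers were at 0, among them Rgs5, Notch3 and Pdgfrb, while all 10 had reads in the Het library and in KO replicates 2 and 3. In KO replicate 1 the stroma and vascular sums thus lay above WT, whereas the sum of the contractile genes did so only with Actg2 counted. With all 8 genes it was 216 RPM there, and the WT testis libraries had 104 and 89.2 RPM. Most of the vascular sum of that KO library came from Ndufa4l2 (15.7 RPM) and Abcc9 (3.66 RPM). The 7 contractile genes without Actg2 summed to 16.4, 335 and 373 RPM in KO, 299 RPM in Het, against 20.9 and 33.7 RPM in WT testis. Per 100 RPM of Sertoli markers that was 55.5, 16.2 and 16.6 RPM in KO, 14.9 RPM in Het, against 42.1 and 55.6 RPM in WT, so the contractile genes differed less than the Sertoli markers did. In sorted round spermatids the stroma markers summed to 7.41, 650 and 1125 RPM in KO, 561 and 505 RPM in Het, against 10.2 and 15.9 RPM in WT, and the 7 contractile genes to 5.50, 43.1 and 51.3 RPM in KO, 42.0 and 37.7 RPM in Het, against 11.2 and 7.31 RPM in WT. The sum of the vascular markers ran the other way there, at 11.5, 11.7 and 15.8 RPM in KO, 19.6 and 13.8 RPM in Het, against 26.1 and 30.4 RPM in WT round spermatids. Most of the WT sums came from Ndufa4l2 (16.1 and 15.9 RPM) and Abcc9 (7.77 and 11.9 RPM). The other vascular markers did not all run that way. Mcam was at 0 in both WT libraries, whereas Cox4i2 was higher in both than in any KO or Het library. Meiotic spermatocyte markers summed to 1010, 2716 and 2475 RPM in KO, 2527 RPM in Het, against 509 and 799 RPM in WT testis. Round spermatid markers summed to 634 to 1658 RPM in KO, 708 RPM in Het and 1972 to 4127 RPM in WT testis. Of these 10 markers, Tnp1, Tnp2, Prm1 and Prm2, genes of the proteins that replace histones, were lower in all KO and Het testis libraries than in WT and made up 1652 and 3775 RPM of the WT sums. Another 5 (Acrv1, Spaca1, Acr, Izumo1 and Catsper3) were higher in all KO and Het libraries than in WT, and Tssk1 overlapped. The part of these cell types in the differences of the contractile genes was not tested.

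**Figure D5:**
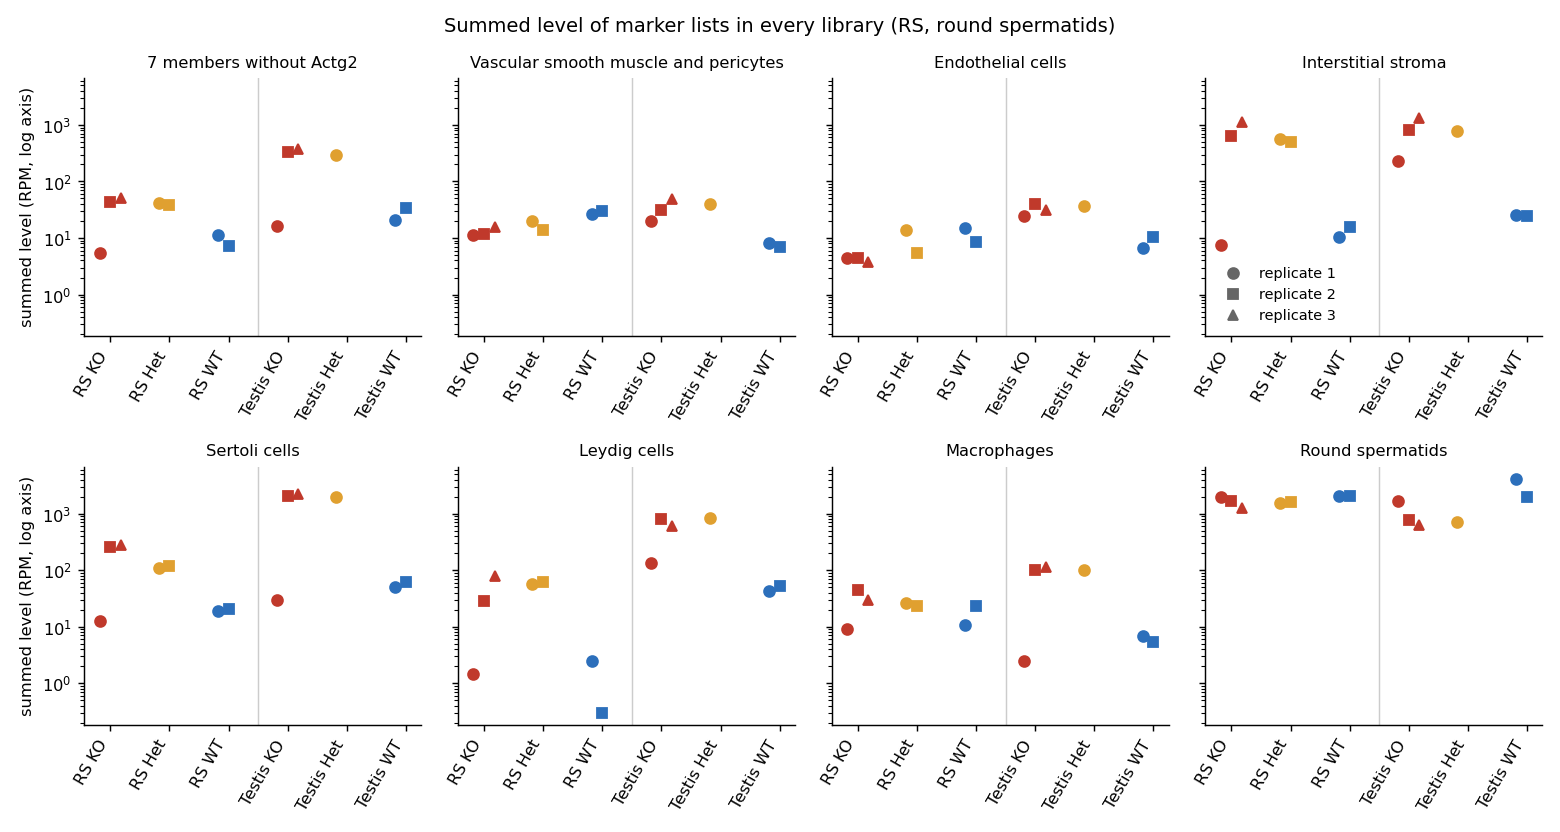
Summed level of the 7 contractile genes without Actg2 and of 7 lists of cell type markers in every library, in RPM on a log axis, with round spermatids (RS) left and testis right in each panel. Points are libraries and shapes are replicate numbers. In testis, Sertoli, Leydig and macrophage markers are high in KO replicates 2 and 3 and in Het, as the contractile genes are, whereas the sum of the round spermatid markers, most of it from Tnp1, Tnp2, Prm1 and Prm2 in WT, is lowest in those libraries.

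Among the genes most like the mean of the 8 contractile genes over the 13 libraries, by Pearson's r of log2(RPM + 1), were Wnk3, Ttyh2, Ankrd10, Fam3c and Pld3, with r from 0.985 to 0.994. These values describe libraries that share their split on all genes. Wnk3, a kinase gene, was at 2.31, 40.0 and 44.1 RPM in KO, 39.9 RPM in Het, against 2.17 and 3.17 RPM in WT testis, and at 0.382 to 5.11 RPM in KO, 2.997 to 6.004 RPM in Het and 0.526 to 0.687 RPM in WT round spermatids. In testis it was thus high in Het and in KO replicates 2 and 3, as Myh11 was.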

How the data were processed

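RNA was measured by Smart-seq2 in 6 whole-testis and 7 round spermatid libraries, grouped by the genotype and cell type in the labels. The authors deposited 1 table of log2 reads-per-million (RPM) per gene. FastQC 0.11.8, Trim Galore 0.6.6, HISAT2 2.1.0 and build mm10 stand in the submitters' processing notes. How reads were counted, and on which annotation, is not given in the sources used here. The low values showed that a gene without reads was deposited at the value of 0.9 read, and such genes were set to 0 RPM. Taken as reads, 99.70% to 99.996% of a library's values were whole to within 0.01 read. The table had 0 further columns of sample values.

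Differences were tested with limma 3.58.1 in R 4.3.3 (lmFit and eBayes with an intensity trend) on log2(RPM + 1), which understates the change of a low gene. A gene entered a fit if 2 or more of its libraries reached 1 RPM. Each cell type was fitted apart for genotypes, and all 13 libraries together for cell types and for the difference of the KO effect. Benjamini-Hochberg adjustment ran over all genes tested, with a threshold of 0.05. The fits were tested on simulated data. The 8 genes, the gene lists, the markers and the tests were chosen with earlier results of these data known. All 8 genes are named in every comparison, at most 4 of each further list by the smallest unadjusted p in testis KO minus WT, and the 6 genes most correlated with the mean of the 8, less any gene that is not reported here. Same-numbered libraries of 1 cell type did not deviate together (correlations from -0.018 to 0.046), nor did WT libraries across cell types (-0.023), but the 3 same-numbered KO pairs across cell types did (0.504, 0.283 and 0.403). In both cell types KO replicate 1 lies across the library split from KO replicates 2 and 3, and KO pairs of unlike number were not compared. These correlations therefore cannot tell a shared animal from the split. Since the labels give no animal, the fit without pairs was kept, and the blocked value stands beside the result it changes. Alternatives were a pseudocount of 0.1 RPM, a filter on a mean of 5 RPM, no filter, centred libraries, voom on recovered reads, a replicate block, 1 fit of all libraries, the library split as a covariate, fits within each side of it, and leaving out each library. Coordinates of all 8 genes were identical in GENCODE M21, which gave exon lengths and overlaps.

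Reads carry no molecular identifiers, so floors cover counting error only. Of counts from 2 to 50 reads, 60.7% to 63.5% per library were even. Reads may thus not be independent, and the floors may be too low. The cause was not tested. Libraries of 1 group always differed by more than counting noise (chi-square per degree of freedom of 10.6 or more).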

Additional observations from a re-analysis of the deposited data

Results flagged for a closer look

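Rock1, the gene of a kinase that inhibits myosin phosphatase, had a KO effect that differed between the cell types with all libraries, a call that did not hold under several alternatives. KO minus WT in round spermatids minus the same in testis was -3.36 on the log2(RPM + 1) scale (SE 0.73, limma adjusted p = 0.0434), where 1.84% of all genes were called lower. The call was lost with centred libraries (-2.54, adjusted p = 0.13), with voom (adjusted p = 0.0909) and with no filter (adjusted p = 0.0539), and in 11 of the 13 fits that left out 1 library, where the difference ran from -3.78 to -2.92 and the adjusted p from 0.00102 to 0.205. Without KO replicate 1 of both cell types it was -3.34 (adjusted p = 3.92e-05), where 26.7% of all genes were called lower. Rock1 was at 21.2, 55.8 and 48.9 RPM in KO testis, against 2.17 and 2.72 RPM in WT testis, and at 21.2, 47.9 and 62.8 RPM in KO round spermatids, against 30.1 and 41.7 RPM in WT round spermatids.

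For Gata6, a transcription factor gene, all 3 KO libraries lay above both WT libraries in testis and below both in round spermatids. Of all genes tested, 28.2% were separated with KO higher in testis, and 19.4% with KO lower in round spermatids. It averaged 15.3 RPM in KO testis (35.4, 4.71 and 5.89 RPM), against 1.57 and 1.27 RPM in WT testis. Its round spermatid levels were 6.98, 6.09 and 7.24 RPM in KO, against 7.77 and 12.4 RPM in WT. The test of the difference of the KO effect between the cell types missed the threshold (-2.71, SE 1.02, limma adjusted p = 0.197). Without KO replicate 1 of both cell types it was -1.88 (adjusted p = 0.0201), where 26.7% of all genes were called lower.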

How the results depend on the processing

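Every KO and Het difference of the 8 genes from WT that was tested kept its sign and its side of the threshold under a pseudocount of 0.1 RPM, a filter on a mean of 5 RPM, no filter, voom and 1 fit of all 13 libraries. Paired counts are genes called higher and lower. That single fit called 3014 and 1139 genes for KO and 2139 and 773 for Het against WT in testis, against 0 and 0 in the fit of testis alone, and still 0 of the 8. For round spermatid minus testis over Het and KO, the smaller pseudocount gave 329 and 314 genes and 0 contractile genes lower, and put Des at 0.31 (0.21 with voom). The 5 RPM filter gave 712 and 810 genes there and left 1 contractile gene lower. It gave 145 and 704 genes for the KO effect in round spermatids minus that in testis. For that difference Des was at 1.14 and Tagln at 0.082 with the smaller pseudocount, and Des was at 2.38 with voom.

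Centred libraries gave 4 genes higher for KO and 135 and 305 for Het against WT in round spermatids, 727 higher for round spermatid minus testis in WT, 1995 higher over Het and KO, and 0 and 0 for the difference of the KO effect. Des was then at -1.17 for Het minus WT in testis and at 0.57 for round spermatid minus testis over Het and KO. Tagln, Des and Mylk were at 0.27, 0.54 and 0.019 for the difference of the KO effect. The cause of these changes was not tested.

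The library split as a covariate called 3422 and 3570 genes and 1 contractile gene each way for KO minus WT in testis, with Acta2 at -2.98, Myh11 at -0.39, Tagln at -0.75, Des at -0.24, Mylk at -0.32 and Actg2 at 1.54. Het minus WT gave 1749 and 1823 genes and 1 contractile gene lower, with Acta2 at -3.19, Myh11 at -0.30, Tagln at -0.55, Des at -1.78, Mylk at -0.44, Myl9 at -0.020 and Actg2 at 1.35. In round spermatids it called 21 and 68 genes for KO, with Tagln at -0.14, Mylk at -0.63 and Myl9 at -0.73, and put Het at -0.52 for Acta2, -0.33 for Tagln, -0.53 for Mylk, -1.42 for Myl9 and 0.20 for Actg2. The difference of the KO effect then had 2351 and 2924 genes, 1 contractile gene each way, and Myh11, Tagln and Des at 0.43, 0.61 and 0.60.

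KO replicate 1 minus WT alone gave 2704 and 3199 genes in testis, 1 contractile gene each way, Acta2 at -2.98, Myh11 at -0.39, Mylk at -0.32 and Actg2 at 1.54. In round spermatids it gave 35 and 151 genes and Mylk at -0.63. KO replicates 2 and 3 minus Het gave 1 and 10 genes in testis, with Myh11 at -0.089, Tagln at -0.20, Cnn1 at -0.16, Actg2 at 0.19, Hspb6 at -0.28, Rock1 at -0.12, Rock2 at -0.32, Calm3 at 0.41, Oxtr at -0.40 and Mef2a at -0.25. In round spermatids it gave 1 and 3 genes, Myh11 at -0.098 and Mylk at -0.092.

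Leaving out each library in turn gave 0 to 9410 genes higher and 0 to 2566 lower for KO minus WT in testis, with 0 to 7 contractile genes higher, 0 to 1 lower and Actg2 from -0.87 to 0.48. Het minus WT in testis ran over 0 to 8318 and 0 to 2122 genes, with 0 to 6 contractile genes higher and 0 to 1 lower. It, and round spermatid minus testis over Het and KO, have no value without the only Het testis library. In round spermatids KO minus WT ran over 0 to 3487 and 0 to 2027 genes and Het minus WT over 0 to 3157 and 0 to 1582, each with 0 to 3 contractile genes higher and 0 to 1 lower. Each of these highest values came without KO replicate 1. Het minus WT in round spermatids also called 537 and 619 genes without KO replicate 3. Round spermatid minus testis in WT ran over 569 to 4206 and 100 to 1760 genes, with 0 to 2 contractile genes lower, Mylk from -1.01 to 0.24 and Tagln from -0.77 to 0.016. Over Het and KO it ran over 2 to 2589 and 6 to 6773 genes, with 0 to 1 contractile gene higher, 0 to 6 lower and Des from -0.37 to 0.19. The difference of the KO effect ran over 0 to 1063 and 0 to 5148 genes, with 0 to 2 contractile genes lower, Acta2 from -2.26 to 1.20 and Des from -0.96 to 0.062. Leaving out KO replicate 1 of both cell types, chosen after seeing the data, gave 2930 and 6907 genes and 1 higher and 6 lower contractile genes over Het and KO, and 1212 and 5314 genes, 2 lower contractile genes and Acta2 at -1.54 for the difference of the KO effect.

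Same-numbered libraries of 1 cell type share only a number. With the replicate block, KO minus WT in testis called 134 and 18 genes and put Actg2 at 0.48. With the block, Het minus WT called 845 and 282 genes and 2 contractile genes higher in testis, and 897 and 692 genes in round spermatids. Round spermatid minus testis over Het and KO then gave 496 and 1112 genes, with 4 contractile genes lower. The 1 Het testis library has no spread of its own, and at these depths levels of Cnn1 and Des in round spermatids rest on a few reads.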
